A study of Bos taurus with 2 samples.

Results

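Noncanonical miRNAs reach their mature form without one of the usual cutting steps. The array carried 8 of them among its 670 bovine miRNAs, chosen by name: bta-miR-320, bta-miR-320b and bta-miR-484 of the capped kind, the mirtrons bta-miR-877, bta-miR-1224 and bta-miR-1225-3p, and bta-miR-664 and bta-miR-1291, which derive from small nucleolar RNAs (snoRNAs). The species prefix bta is left out from here on. The names were taken with or without an arm suffix, and 1 listed name, miR-320a, had no entry under that spelling. Small RNA was compared between 2 fractions of Holstein raw milk whey. The exosome group was the material pelleted at 10000 g for 90 min at 4 °C and washed with PBS, and the supernatant group was the whey left above that pellet. For each fraction, equal shares of RNA from 3 milk samples were combined, and 40 ng of the mix was given the dye Cy3 and hybridised to an Agilent array that reads 1 colour.

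Each fraction is therefore 1 pooled array. No difference below has a replicate check, no p-value is given, and each ± is an SD between spots within 1 array, so it covers technical spread only. The number of arrays limits the precision. The labels call the pellet exosome, although the stated force is below that usually used to pellet such small vesicles. The supernatant may still hold vesicles that the stated spin did not pellet. Fewer vesicles or cells of a kind and less RNA in each cannot be told apart in such bulk RNA.

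In the canonical route the nuclear enzyme Drosha cuts a hairpin out of a long transcript, and Dicer then trims the hairpin to the mature miRNA, which Argonaute binds. A capped hairpin is transcribed as a short RNA whose ends are already the hairpin's own, so Drosha is not needed. A mirtron is a short intron that splicing releases and that folds into a hairpin, again without Drosha. Some snoRNAs, which normally guide chemical modification of other RNAs, are also cut into miRNA-sized pieces. These routes are known mainly from human and mouse cells. None of them was measured here, and the array reads only the mature product.

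The design of the probes bears on every value. An Agilent miRNA probe pairs with the 3′ part of the mature miRNA, and its length is adjusted to even out melting temperatures. The seed, by which a miRNA recognises its targets, lies at the other end and is not read. The longest probe of each noncanonical miRNA is printed below because its length and base composition differ so much between members. Capitals mark the bases that the longest probe has beyond the shortest probe of that miRNA.
miR-320: tcgccctctcaaC
miR-320b: accaccctctcaacC
miR-484: atcgggaggggactgA
miR-877: ccctgcgccaTCT
miR-1224: ctccacctccC
miR-1225-3p: ctgggggcggC
miR-664: catccacacacaccC
miR-1291: actgcaggtcttcagT
The mirtron probes were the richest in G and C: the miR-1225-3p probes had 10 and 11 bases with 90.0% and 90.9% G and C. The miR-1291 probes stood at the other end, with 15 and 16 bases, 8 of them G or C in each. Of these 8 miRNAs, miR-877 had 4 probes of 15 spots each and the others 2 probes of 30 spots each, before outlier spots were left out.

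The array design places each probe in the cattle build HGSC Btau_3.1, without naming a strand. The longer miR-320 probe has a pair of positions, chr8:72629974-72629986 and chr20:16455550-16455562, so its signal cannot be assigned to 1 gene copy. The longest probes of the others are placed at chr4:98829777-98829790 for miR-320b, chr25:14994319-14994333 for miR-484, and chr23:28321755-28321766 for miR-877. They lie at chr1:84809217-84809226 for miR-1224, at chr25:2137503-2137512 for miR-1225-3p and at chr5:34153709-34153723 for miR-1291. The miR-664 probe is placed on an unassigned scaffold. For the placed members other than miR-320 that interval falls 1 base short of the probe's length.

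All 8 miRNAs matched a miRNA gene of RefSeq (assembly ARS-UCD2.0), which was used only for names and neighbours because its build differs. The match gave 9 genes, since miR-320 has a pair of copies. Of the 9, 6 overlapped a protein-coding gene. The mirtrons lay in their known host genes: miR-877 in ABCF1, which encodes a translation factor, miR-1224 in VWA5B2, and miR-1225 in PKD1, which encodes polycystin-1. The matched miR-664 gene lay in DKC1, which encodes dyskerin, the enzyme of the H/ACA class of snoRNA particles. miR-1291 lay in KANSL2, a subunit gene of a histone acetyltransferase complex, with an annotated snoRNA within 5 kb. None of the 9 genes (0) overlapped an annotated snoRNA. The 1 miR-320 copy outside RNF180 lay within 5 kb of POLR3D, a subunit gene of an RNA polymerase. miR-484 lay within 5 kb of NDE1 and MARF1. The table gives gene spans only, so exons and introns were not told apart.

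The first question was which of these miRNAs were seen in each fraction. A miRNA counted as detected if 1 of its probes or more was, and a probe if the software flagged 50% or more of its spots as well above background. On the exosome array 3 of the 8 were detected, miR-320, miR-1224 and miR-664, against 9.85% of all 670 miRNAs. On the supernatant array 6 of the 8 were detected, those 3 with miR-484, miR-877 and miR-1225-3p, against 12.7% of all miRNAs. The 3 found on both compare with 4.48% of all miRNAs, and the 3 on the supernatant array only with 8.21%. None (0) was detected on the exosome array only, and 2, miR-320b and miR-1291, were detected on neither. By kind, the exosome array detected 1 of 3 capped miRNAs, 1 of 3 mirtrons and 1 of 2 snoRNA-derived miRNAs. The supernatant array detected 2 of 3, all 3 and 1 of 2 in the same order. On each array, every probe of a member was detected or none was. The longer probes of a member only add bases to its shortest and read the same target. Their agreement is therefore not independent support for the calls. In all, the exosome array detected 6 of the 18 probes and the supernatant array 14. The shares stand beside the background as a description of 8 hand-picked names, with no test.

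**Figure D1:**
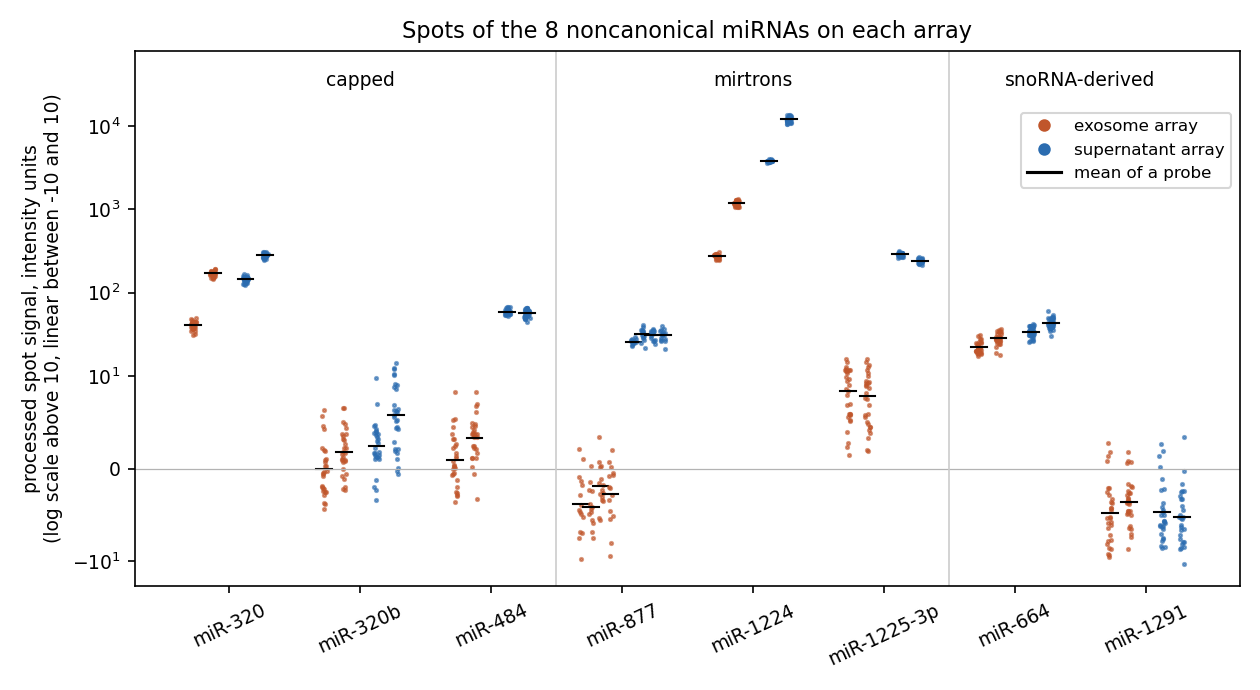
Processed spot signal (intensity units, log scale above 10 and linear between -10 and 10) of every spot of the 8 noncanonical miRNAs, outlier spots left out, on the exosome and supernatant arrays. Each column of points is 1 probe, shorter probes to the left, and the black bar is its mean. miR-484, miR-877 and miR-1225-3p are detected on the supernatant array only. The exosome spots of miR-1225-3p are low but all above 0, from 1.48 to 16.2, where negative control spots read 4.77 ± 4.51. miR-320b and miR-1291 have no probe mean above 5.77 on either array.

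miR-320, which in mammals is the best known capped miRNA, was the 15th brightest of 66 detected miRNAs on the exosome array and the 30th of 85 on the supernatant array. It read 106 ± 9.12 in exosome (59 spots) and 214 ± 14.2 in supernatant (58 spots), in intensity units without scaling between the arrays. Its shorter probe had spots from 31.2 to 49.7 (median 41.8) in exosome and from 125 to 168 (median 147) in supernatant. Its longer probe ran from 147 to 192 (median 172) and from 249.7 to 311 (median 281). Neither probe's spots overlapped between the arrays, and both were brighter on the supernatant array. Its log2 difference, exosome over supernatant, was -1.02 as read, with an SD between spots of 0.16. With each array scaled to its 75th percentile (over probes that both arrays detected), it was 3.97, or 15.7-fold higher in exosome.

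That reversal is shared by all members on both arrays and comes from the scaling. The percentile was 473 in exosome and 15030 in supernatant, so scaling moved every log2 difference up by 4.99. Over the 30 miRNAs detected on both arrays, the median log2 difference was -3.69 unscaled and 1.30 scaled. For miR-320, miR-1224 and miR-664 the median was -1.02 unscaled and 3.97 scaled. After scaling, all 3 were at least 2-fold higher in exosome, as were 53.3% of the 30 miRNAs. Without scaling, miR-320 and miR-1224 were at least 2-fold higher in supernatant, against 70.0% of the 30, and miR-664 was not. Which fraction held more of any of the 3 is thus not settled by these arrays. What does not move with a common factor is their order against each other and against other miRNAs, which is given further on.

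The probes of miR-320 disagreed on the size of the difference. Its unscaled log2 difference was -1.83 ± 0.19 by the 12-base probe and -0.73 ± 0.13 by the 13-base probe (SD between spots). The added base, the final C printed above in capitals, raised the signal 4.15-fold on the exosome array and 1.93-fold on the supernatant array. On the log2 scale these gains differ by 1.10. Among all 23 probe pairs on the array that differ by 1 added base and were detected on both arrays, from 22 miRNAs, the median such difference was 0.18 in size, and miR-320 ranked 5. It was 1 of 5 pairs in which the gains differed by more than 1 log2 unit. The miR-1224 pair differed by 0.48 and the miR-664 pair by 0.03. The value for miR-320 is therefore less certain than the SD between its spots shows. The part played by probe length in it was not tested.

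**Figure D2:**
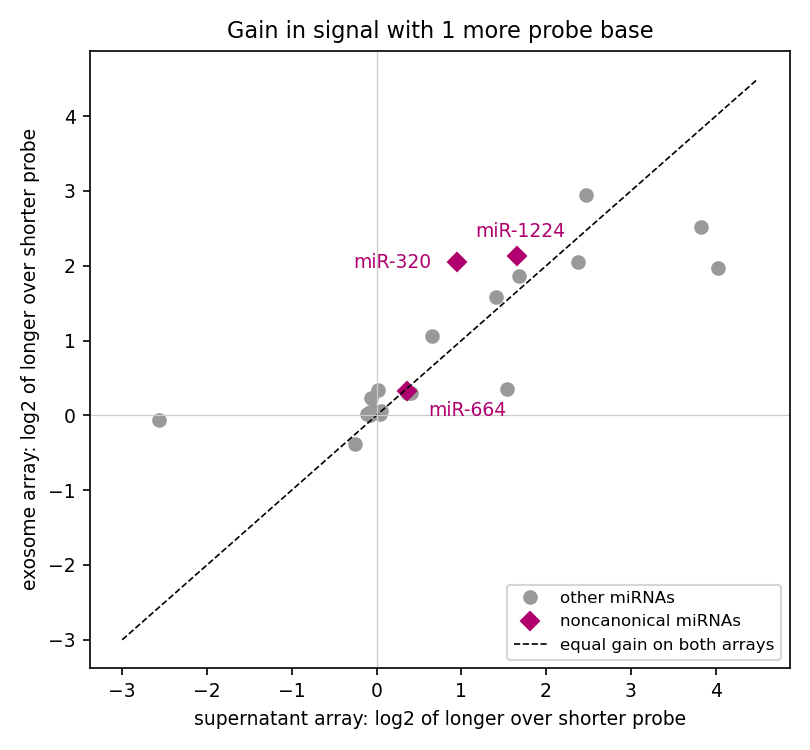
Log2 ratio of the longer to the shorter probe of a pair that differs by 1 base, on the supernatant array (horizontal) and the exosome array (vertical), 1 point for each of 23 pairs. The dashed line marks equal gain on both arrays; miR-320 lies 1.10 above it and miR-664 lies on it.

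miR-320b, a relative of miR-320, was not well above background in either fraction. It read 0.88 ± 2.64 in exosome (57 spots) and 4.10 ± 3.39 in supernatant (58 spots), where 1000 negative control spots read 4.77 ± 4.51 and 4.74 ± 8.18. No spot of its probes (0%) was well above background. By the weaker flag, positive and significant, its 15-base probe had 21 of 30 spots in supernatant and 8 of 29 in exosome. The longest probes of miR-320 and miR-320b have a run of 10 bases in common, printed here in capitals, and differ in the bases before it.
miR-320: tcgCCCTCTCAAC
miR-320b: accaCCCTCTCAACc
The run covers 10 of the 13 bases of the miR-320 probe. The miR-320b probes read 0.88 and 4.10 on the arrays where miR-320 read 106 and 214. Whether RNA of the one bound the probes of the other was not tested. A run of 8 bases of the miR-320 probe and of 9 bases of the miR-320b probe is also present in the probe of miR-2483, which read 0.66 ± 2.31 in exosome and -1.26 ± 3.28 in supernatant.

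miR-484, the other capped miRNA, was seen in supernatant only. It read 57.8 ± 5.07 there (58 spots) and 2.10 ± 2.64 in exosome (57 spots). Its probes gave 59.4 ± 4.04 and 56.3 ± 5.93 in supernatant, with spots from 44.4 to 66.9, and no exosome spot of either probe exceeded 8.32. The fractions did not overlap spot by spot. Because the exosome value is not well above background, only a bound can be given. It uses in place of the exosome value the lowest signal of any miRNA detected there, 8.21, or the dim value itself where that is higher. That floor is not a strict limit, since some undetected miRNAs read higher there, such as miR-2486 at 15.7. By this nominal bound miR-484 was 7.04-fold higher in supernatant without scaling. All 3 supernatant-only members had an unscaled bound of at least 2-fold, as did 94.5% of the 55 miRNAs in that set. After scaling no bound above 1-fold was left, since the lowest detected signal then stood at 0.0174 on the exosome array and miR-484 at 0.0038 on the supernatant array. A run of 8 bases in the miR-484 probe, capitals below, is also present in the probe of miR-2882, which read 635 ± 38.1 in supernatant.
miR-484: atcGGGAGGGGactga
miR-2882: cagGGGAGGGGc
Whether RNA of the one bound the probes of the other was not tested.

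The mirtrons were the members with the widest range. miR-1224 was the brightest of the 8 on both arrays, 5th of 66 detected miRNAs on the exosome array and 9th of 85 on the supernatant array. It read 733 ± 58.9 in exosome (60 spots) and 7937 ± 623 in supernatant (56 spots). Spots of its 10-base probe ran from 244 to 304 (median 276) in exosome and from 3624 to 3989 (median 3832) in supernatant. Those of its 11-base probe ran from 1056 to 1335 in exosome and from 10543 to 13690 in supernatant. Every exosome spot lay far below every supernatant spot of the same probe. As read, miR-1224 was 10.8-fold brighter in supernatant, a log2 difference of -3.44 with an SD between spots of 0.16, and after scaling it was 2.93-fold higher in exosome, at 1.55. Its probes gave unscaled log2 differences of -3.81 and -3.33. The log2 difference of miR-1224 lay 0.25 above the median of the 30 miRNAs detected on both arrays. Unscaled, those 30 ran widely, from -9.56 to 4.21. A miRNA detected on 1 array only has no such value.

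The miR-1224 probes are very short, and runs within them occur in probes of other miRNAs. The longest run, of 9 bases, is also present in the probe of miR-30b-3p, and a run of 8 in that of miR-2902. The longest probes are set side by side with the run common with miR-30b-3p in capitals.
miR-1224: cTCCACCTCCc
miR-30b-3p: aagtaaacaTCCACCTCC
The miR-30b-3p probes read 2.36 ± 2.27 in exosome and 1.62 ± 3.91 in supernatant, on arrays where miR-1224 gave 733 and 7937. miR-2902 read -0.26 ± 2.47 in exosome and 101 ± 7.75 in supernatant. Only 1 of the 1465 probes on the array had 10 bases with 7 G or C, the shorter miR-1224 probe itself. Of the 7 with 11 bases and 8 G or C, the exosome array detected 1, the miR-1224 probe itself. The supernatant array detected 4, among them the miR-1224 probe and a miR-877 probe. Such counts of like probes, here and below, include the members' own probes.

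miR-1225-3p was a supernatant-only mirtron, with the largest unscaled bound of the 3 supernatant-only members. It read 264 ± 12.8 in supernatant (59 spots), 26th of 85, and 8.13 ± 3.68 in exosome (60 spots). Its 10-base probe had supernatant spots from 262 to 314 and exosome spots from 1.48 to 16.2, and its 11-base probe from 216 to 268 and from 1.94 to 16.2. Its exosome signal was low. Of each probe, 27 of 30 spots were positive and significant in the scanner software's test, although 0 were well above background. By that weaker flag 26.3% of all miRNAs were detected on the exosome array, where negative control spots read 4.77 ± 4.51. The nominal bound for miR-1225-3p was 32.1-fold higher in supernatant without scaling and 1.01-fold higher after scaling. It rests on the floor of 8.21, which part of its exosome spots exceeded. A bound of 1.01 gives no usable difference. Of the 9 probes with 11 bases and 10 G or C, the exosome array detected 4 and the supernatant array 7.

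miR-877 was dim and was seen in supernatant only. It read 30.03 ± 4.19 there (57 spots) and -3.16 ± 2.82 in exosome (58 spots). The bound without scaling was 3.66-fold higher in supernatant, and none was left after scaling. From the shortest to the longest, its 4 probes read 25.9 ± 1.68, 32.0 ± 5.22, 31.3 ± 4.18 and 30.9 ± 4.75 in supernatant. Lengthening the probe from 10 to 13 bases thus changed the signal by little more than the spread between spots. All exosome spots lay at or below 3.44 and all supernatant spots at or above 21.2. Detection was common among like probes on the supernatant array: of the 37 probes with 12 bases and 9 G or C, 18 were detected there and 3 on the exosome array. Of the 44 with 13 bases and 9 G or C, 13 and 0 were detected. The part played by base composition in the calls for the mirtrons was not tested.

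miR-664, a product of an H/ACA snoRNA in other mammals, was the dimmest member detected on both arrays. It read 25.4 ± 4.13 in exosome (58 spots), 42nd of 66, and 38.8 ± 5.75 in supernatant (59 spots), 60th of 85. Spots of the shorter probe ran from 17.6 to 31.2 (median 21.6) in exosome and from 25.8 to 42.2 (median 34.1) in supernatant. Those of the longer probe ran from 17.7 to 36.4 (median 27.9) and from 30.5 to 59.8 (median 42.7). The spots of both miR-664 probes overlapped between the arrays, unlike those of the 4 miR-320 and miR-1224 probes. Overlap was not counted over all probes, so what is said of it for the members has no share to compare with. Unscaled, the median log2 difference of the 30 miRNAs on both arrays was -3.69. The unscaled log2 difference was -0.61 with an SD between spots of 0.32, or 1.52-fold brighter in supernatant, and the scaled one was 4.38. Its probes agreed closely, at -0.59 and -0.62 unscaled.

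The miR-664 probe holds an alternating run of 9 bases that begins with C, capitals in the first line below. That exact sequence occurs in no other miRNA's probe on the array. Runs of the same length that begin with A were not searched for, and the miR-2304 probe opens with such a run. Of the miR-664 run, 8 bases are present in the probe of miR-2304, capitals in the second line.
miR-664: catcCACACACACcc
miR-2304: aCACACACAaccacac
miR-2304 read 40.1 ± 5.13 in exosome and 67.4 ± 8.32 in supernatant, and was 1 of the 3 miRNAs nearest to miR-664 in signal. A run of 8 bases of the miR-664 probe was also present in the probes of miR-2288, miR-206 and miR-3431. miR-2288, detected on the exosome array only, read 17.3 ± 3.40 and 15.5 ± 3.74. miR-206 read 6.12 ± 2.73 and 5.14 ± 3.42, and miR-3431 read -1.68 ± 2.69 and -0.999 ± 3.17. Of these 4 miRNAs, miR-2304 was detected in both fractions, miR-2288 in exosome alone, and miR-206 and miR-3431 in neither. Among all 670 miRNAs the detected share was 9.85% in exosome and 12.7% in supernatant. The part of repeat-containing RNA in the miR-664 signal was not tested.

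miR-1291, the other snoRNA-derived miRNA, gave the lowest readings of the 8. It read -4.17 ± 2.98 in exosome (60 spots) and -4.95 ± 3.07 in supernatant (58 spots), below the mean of the negative control spots on both arrays. None of its spots (0%) was positive and significant on either array. Of the 84 probes with 15 bases and 8 G or C, such as its shorter probe, the exosome array detected 4 and the supernatant array 6.

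**Figure D3:**
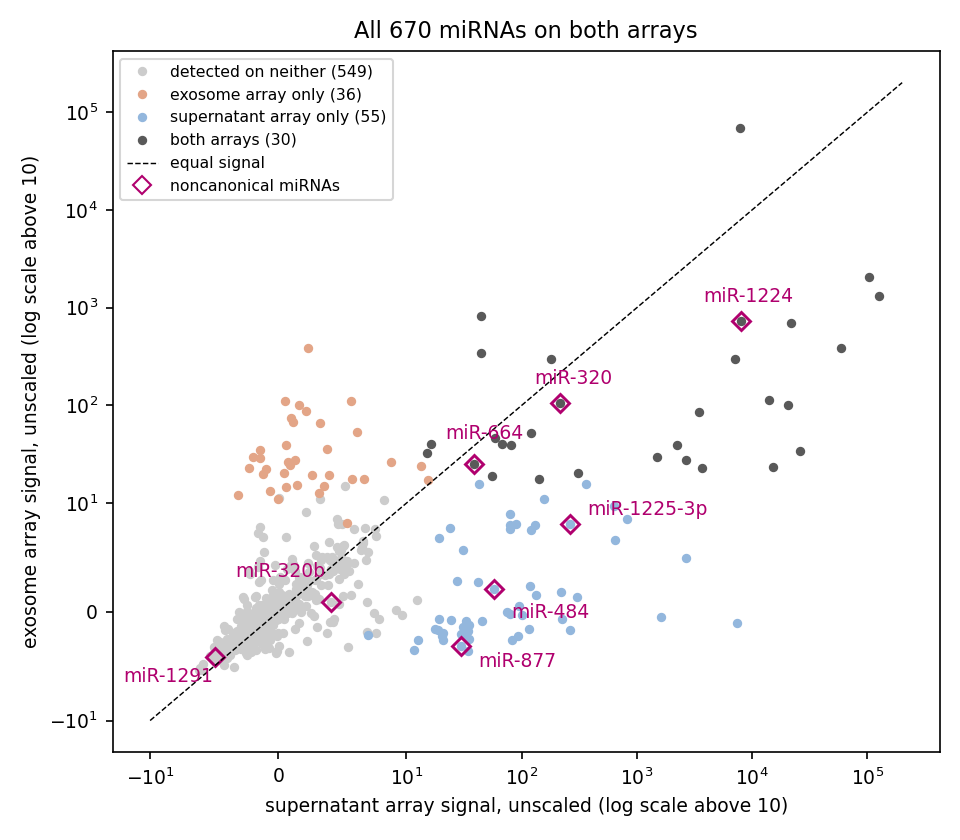
Unscaled signal of all 670 miRNAs on the supernatant array (horizontal) and the exosome array (vertical), both on a log scale above 10 and linear below, 1 point per miRNA, with the 8 noncanonical miRNAs as diamonds. The dashed line is equal signal; all 3 members detected on both arrays lie below it, at 214 and 106 for miR-320, 7937 and 733 for miR-1224 and 38.8 and 25.4 for miR-664.

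Set against each other, the members on both arrays did not differ between fractions to the same degree. The log2 difference of miR-664 exceeded that of miR-1224 by 2.83 ± 0.36, a 7.10-fold gap, and that of miR-320 exceeded it by 2.42 ± 0.23, or 5.34-fold (SD between spots). A factor common to all spots of an array cancels in these gaps. Taken probe by probe, over 4 pairings each, the first gap ran from 2.71 to 3.22 and the second from 1.50 to 3.09. miR-664 and miR-320 differed by 0.41 ± 0.35, from 0.11 to 1.24 over probe pairings, which is about the spread between spots. Quantile normalization, which changes bright and dim probes unequally, kept the gap of miR-320 over miR-1224 at 2.09. It turned the gap of miR-664 over miR-1224 to -0.43 and that of miR-664 over miR-320 to -2.52. In the order of all 30 log2 differences from the most exosome-sided down, miR-664 was at rank 8, miR-320 at rank 10 and miR-1224 at rank 15 with every scaling by a common factor. With quantile normalization the ranks were 13, 7 and 12 in that order, and with normexp 8, 13 and 16.

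**Figure D4:**
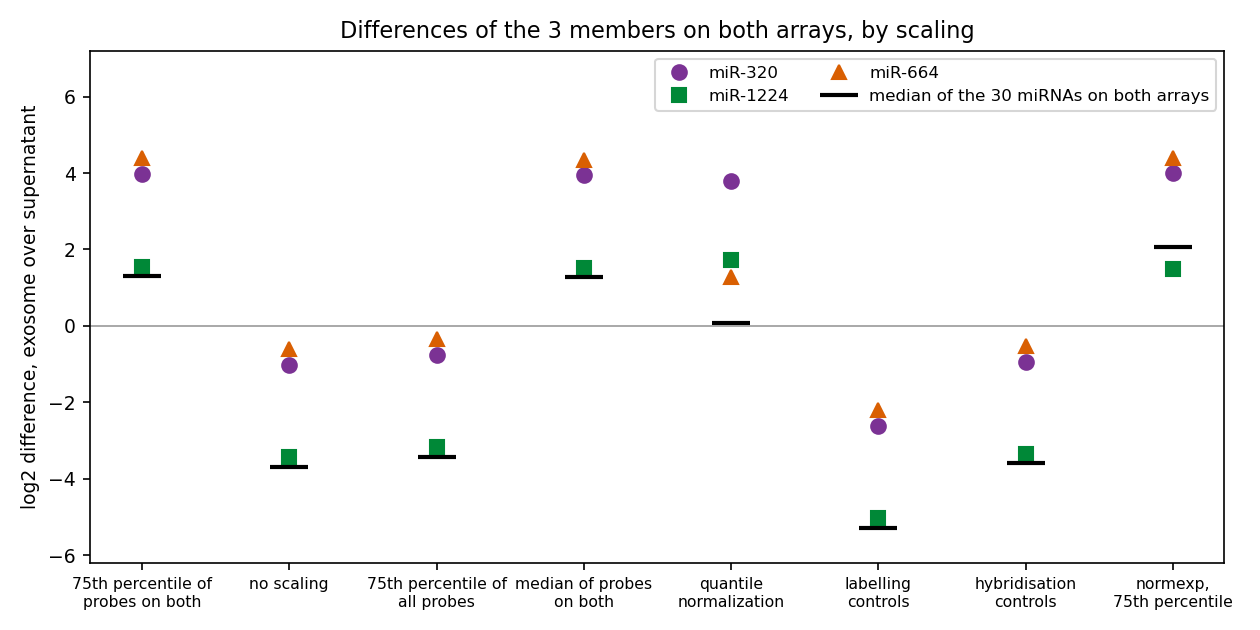
Log2 difference, exosome over supernatant, of miR-320, miR-1224 and miR-664 under 7 scalings and with normexp background correction, with the median of the 30 miRNAs on both arrays as a black bar. The 3 members are positive under 4 of these 8 settings and negative under the other 4. miR-320 and miR-664 lie above the bar in each, by a margin that only quantile normalization and normexp can change.

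A factor common to an array cancels in the margin of a miRNA over the median of the 30 miRNAs on both arrays. With any such factor miR-320 was more exosome-sided than that median by 2.67 and miR-664 by 3.08. Quantile normalization and normexp can change the margin. In that order they gave 3.72 and 1.95 for miR-320, and 1.20 and 2.32 for miR-664. miR-1224 lay above the median by 0.25 with each scaling by a common factor, above it by 1.63 with quantile normalization, and below it, at -0.58, with normexp. Probes detected on the exosome array had a median of 53.3% G and C and 16 bases, against 71.4% and 13 bases on the supernatant array. The part played by probe composition in these margins was not tested. Spiked RNAs bear on the choice of scaling. The labelling controls dmr_285 and dmr_31a, added before labelling, read 237 and 116 on the exosome array against 67.4 and 44.3 on the supernatant array. The hybridisation controls dmr_3 and dmr_6 read 5801 and 1489 against 6130 and 1587. Scaled to the labelling controls, the log2 differences were -2.62 for miR-320, -5.04 for miR-1224 and -2.21 for miR-664. Scaled to the hybridisation controls, they were -0.93, -3.35 and -0.52.

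The miRNAs nearest to each member were found by the distance between unscaled log2 signals on the 2 arrays, over the 30 on both. For miR-320 they were miR-30d at a distance of 1.29, with 52.6 in exosome and 122 in supernatant, miR-141 at 1.54 and miR-30a-5p at 1.99. miR-30a-5p had nearly the same unscaled log2 difference as miR-320, -1.03 against -1.02. For miR-1224 they were miR-2881 at 1.32, with 295 and 7138, miR-2412 at 1.45 and miR-2328* at 2.81. For miR-664 they were miR-2291 at 0.67, with 18.9 and 55.2, miR-2304 at 1.03 and miR-92 at 1.06. With a pair of points per miRNA, such likeness describes these arrays only.

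Other miRNAs of unusual origin were scarce on the array. Of 14 further names linked to such routes, 2 had a probe: miR-451, which is cut by Argonaute in place of Dicer, and miR-1248, linked to a snoRNA. Neither was detected. miR-451 read -0.78 ± 3.40 in exosome and -0.62 ± 2.87 in supernatant, and miR-1248 read -2.27 ± 3.02 and -3.33 ± 3.60. miR-451 is abundant in red blood cells, and of the 3 erythroid markers 0 were detected in exosome and 1, miR-486, in supernatant. Their summed signal was -2.10 and 33.4, and miR-486 alone read -1.79 and 34.1. Of 6 leukocyte markers listed, 4 matched an array entry by name. Of these 4, 0 and 1 (miR-223) were detected, with a summed signal of 5.20 and 18.5. miR-223 alone read 6.83 and 19.3. The listed miR-142-3p and miR-142-5p had no entry under those spellings. Entries named miR-142 and miR-142* were detected on neither array. miR-142 read -2.85 ± 3.05 in exosome and -2.54 ± 3.54 in supernatant, and miR-142* read 0.45 ± 2.66 and -0.23 ± 3.53. Of 5 markers of mammary epithelium, the cells that secrete milk, 4 were detected in exosome and 2 in supernatant, with summed signals of 767.6 and 231. All these sums are without scaling between the arrays. Of all miRNAs, 9.85% were detected in exosome and 12.7% in supernatant. The part of these cell types in the values of the noncanonical miRNAs was not tested.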

How the data were processed

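Per the file headers and the submitters' processing notes, Agilent Feature Extraction (10.7.3.1) read the images. The deposited intensity is the background-subtracted brightness of a spot, not scaled between arrays. The authors' value table holds log2 values, which match the log2 ratio of the software's total signal per miRNA to 0.1. Other steps by the authors were not given in the sources used here.

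There were 40200 miRNA spots per array. Of these, 1005 (exosome) and 1032 (supernatant) were flagged as outliers by the software and left out, and 0 were saturated. Spots were averaged per probe, probes per miRNA on the linear scale, and values divided by the 75th percentile of probes detected on both arrays before taking log2. For a miRNA, the SDs of its probes were combined as their root mean square. Members were found by name. Named besides them were the 3 nearest miRNAs of each member on both arrays, the further list's miRNAs on the array, and miRNAs whose probes have 8 or more bases in common with a member's. The last, and the further list's undetected miRNAs, were chosen after their values were seen. Members and lists were chosen with earlier results of these data known. Mature sequences were not used here, so members were not grouped by seed. Alternatives covered scaling, background correction (limma 3.58.1 in R 4.3.3), summaries, detection and spots. Spot averaging, detection and the unscaled difference were tested on simulated data. The scalings and the lower bounds were not checked in that test. Python 3.11.15, numpy 2.4.6, pandas 2.3.3 and matplotlib 3.10.9 were used.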

Additional observations from a re-analysis of the deposited data

How the results depend on the processing

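The direction of miR-320, miR-1224 and miR-664 depended on the scaling: of 14 alternatives each kept its positive log2 difference under 10 and turned negative under 4. In the order miR-320, miR-1224 and miR-664, these 4 gave -1.02, -3.44 and -0.61 without scaling, -0.77, -3.18 and -0.35 with the 75th percentile of all probes, -2.62, -5.04 and -2.21 with the labelling controls, and -0.93, -3.35 and -0.52 with the hybridisation controls. Each divides all signals of an array by 1 factor, so the shift follows from that factor. Of the 10 that stayed positive, only the median of probes on both arrays and quantile normalization changed the scaling. The rest kept the 75th percentile of what both arrays detected, so they do not bear on that choice. Quantile normalization gave 3.80 for miR-320 and 1.28 for miR-664, the brightest probe 4.26 for miR-320, and the software's total signal and the value table alike 4.21 for miR-320 and 1.80 for miR-1224. In these last 2 settings the percentile was taken over miRNAs in place of probes. Of the gaps between members, those of miR-664 turned under quantile normalization alone, to -0.43 for miR-664 over miR-1224 and -2.52 for miR-664 over miR-320; the cause was not tested. With positive and significant spots in place of well above background, 5 members were detected on the exosome array (26.3% of all miRNAs) and 5 on both (18.4%), miR-484 and miR-1225-3p joining, and 7 on the supernatant array (27%), miR-320b joining. Of the 3 supernatant-only members, 1 had a bound above 1-fold after the scaling used in the text. All 3 had one without scaling, with the 75th percentile of all probes, with quantile normalization and with either set of controls, and 0 had one with normexp. Bounds above 1-fold were not counted over all 55 supernatant-only miRNAs under these settings, so the member counts have no share to compare with. Low signal over background limits all members but miR-320 and miR-1224 on at least 1 array. No paired analysis was possible because each fraction has 1 array.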

Other observations

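The software's own total signal per miRNA, set to 0.1 where it called none, was 89.5 and 181 for miR-320, 622 and 6733 for miR-1224, and 21.6 and 32.9 for miR-664, exosome first. It was 0.1 on the exosome array for miR-484, miR-877 and miR-1225-3p, against 49.1, 25.5 and 224 on the supernatant array, and 0.1 on both arrays for miR-320b and miR-1291. Besides miR-320, the probe pairs whose gain with 1 added base differed by more than 1 log2 unit between the arrays were those of miR-1343, miR-1584, miR-2478 and miR-2328*, at 2.503, -2.06, -1.32 and -1.19, exosome minus supernatant.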
